A study of Mus musculus with 11 samples.

Results

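The infarcted cortex was compared with the cortex of the opposite hemisphere 7 d after a photothrombotic stroke in mice, in 4 of the 11 libraries of the series. The members were chosen by their labels: the 2 infarcted-side libraries at 7 d, without and with levetiracetam, and the 2 libraries of the non-infarcted side from the same states. All come from male C57BL/6N mice that received rose bengal, a light-sensitive dye, at 35 mg/kg into the peritoneum and then light from a 565 nm LED at 200 mW for 30 min over a circle of 3.5 mm on the left parietal cortex. Levetiracetam (LEV), an anticonvulsant whose target is SV2A, a protein of synaptic vesicles, was given to 1 of the 2 states at 5 mg/mL in the drinking water. The design text of the study gives ages of 8 to 10 and of 65 to 85 weeks without assigning them to libraries, and it starts LEV at a later time than the labels, which were followed. Each group is 1 library, and the labels give neither the number of mice in it nor whether both sides come from the same mice, so p-values measure the spread between these libraries only. The assay was CAGE, the cap analysis of gene expression, which counts tags from the capped 5′ ends of transcripts. Values are CPM, the tag count of a gene scaled to a library total that is the same for all libraries. Of 22377 genes in the table, 16296 had a mean of at least 1 CPM over the 4 libraries and were tested. This limit takes the mean over both sides, so a rare gene can pass it through its higher side alone. Counts and medians of lists with rare genes are tilted towards such genes.

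Photothrombosis closes the vessels of a small piece of cortex and leaves a sharply bounded infarct. In the days that follow, resident microglia and macrophages from the blood clear the dead tissue, astrocytes at the rim become reactive, and fibroblasts and pericytes of the vessels and meninges lay down a collagen-rich scar. Phagocytes that have taken up myelin and membranes store the lipid in droplets, degrade the rest in lysosomes and export cholesterol on apolipoproteins. Neurons in the core are lost, and those in the surrounding cortex change their synapses and firing.

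The 4 libraries held 16590924 and 17257308 tags on the infarcted side (7 d, then 7 d LEV) and 17986333 and 18810094 on the opposite side. A count of 3 tags was 0.159 to 0.181 CPM. No floor was applied to ratios, which were taken wherever both counts were above 0. The label of cortex was met by excitatory neuron genes in all 4 libraries: the summed level of the 13 listed genes was 3545 and 4062 CPM on the infarcted side, 4643 and 5322 CPM on the opposite side and 4801 CPM in the naive library, and none was at 0. The side difference is the mean of 2 differences in log2(CPM + 1), infarcted minus opposite, 1 in the 7 d pair and 1 in the 7 d LEV pair. It was tested with limma with the pair as a factor, which leaves 1 residual degree of freedom, beside which limma's trend over all genes counts as 198.7. A small p therefore rests mainly on the spread of other genes at the same level, and an exact permutation test of 2 against 2 libraries cannot go below 0.333. In bulk tissue, fewer cells of a type and less RNA per cell cannot be told apart.

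At 7 d the infarcted cortex carried large rises in genes of phagocytes, scar matrix, lipid storage and cell division, and small falls spread over neuronal and sterol genes. Of the 16296 genes, 3908 (24.0%) were called at an adjusted p under 0.05, 2537 of them higher (15.6% of those tested) and 1371 lower (8.41%). The median difference was 0.73 among the genes called higher, −0.35 among those called lower and −0.02 over all tested. On the log2(CPM + 1) scale, the mean difference reached 2-fold in 868 of the genes called higher, 4-fold in 211 and 8-fold in 49, against 3, 0 and 0 of those called lower. In both pairs separately, 734 genes were at least 2-fold higher and 0 at least 2-fold lower on that scale. Adding 1 CPM shrinks the differences of low genes, so falls in CPM itself can be larger. For Myh1 the ratio of tags between sides was 0.0273 in the 7 d pair and 0.311 in the LEV pair. The LEV value rests on 2 against 7 tags. The genes called higher held 16.9% and 15.4% of all tags on the infarcted side against 10.4% and 9.82% on the opposite side and 10.2% in the naive library. The genes called lower held 14.7% and 16.1% against 19.3% and 20.1%, with 17.8% in the naive library.

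**Figure D1:**
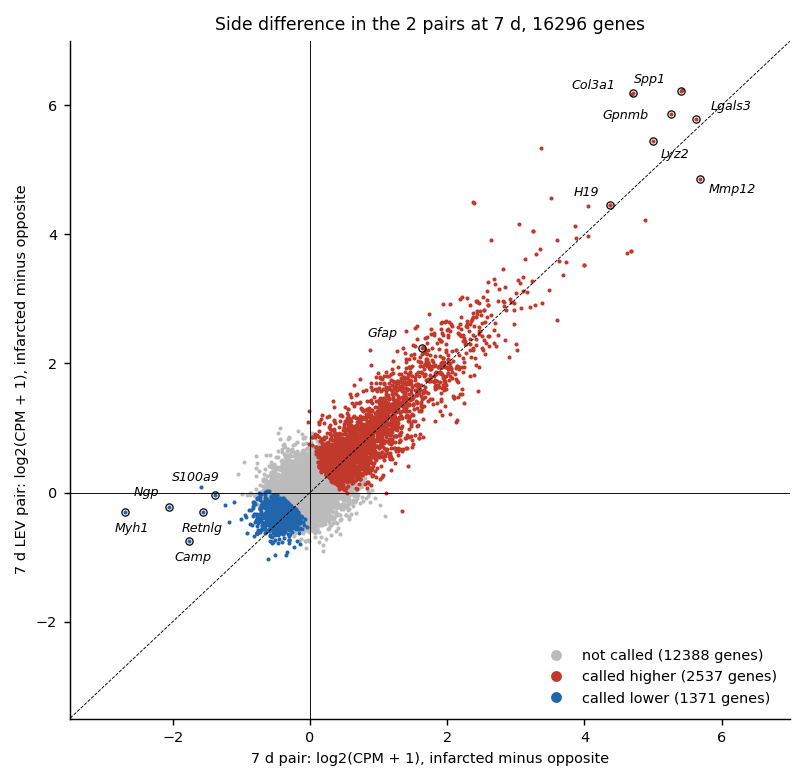
Side difference in log2(CPM + 1), infarcted minus opposite, in the 7 d pair (horizontal axis) against the 7 d LEV pair (vertical axis), 1 point per gene for 16296 genes. Red points were called higher (2537), blue lower (1371) and grey not called, and the dashed line marks equal differences. The circled genes other than Retnlg (−0.93, called lower) are named in the text. The red arm follows the dashed line up to differences near 6, while some of the lowest genes lie far to the left and close to 0 on the vertical axis.

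The pairs gave like values for most of the called genes. Of the 3908, 3898 had the same sign in both pairs, and the median gap between pairs was 0.20 among genes called higher and 0.14 among those called lower. The calls were made on these same pairs, so a shared sign and a small gap are largely set by the selection. Over all tested genes 70.6% had the same sign in both pairs, and the median gap was 0.171. Of these 16296 genes, both infarcted libraries were above both opposite libraries in 4514 and below both in 4578. In 32 called genes the pairs differed by more than 1. Of the 734 genes that were at least 2-fold higher in both pairs, 470 had the larger difference in the LEV pair. Across all tested genes the differences of the 2 pairs had a Pearson correlation of 0.857 as a description, over genes that share libraries and are not independent.

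Genes of phagocytic microglia and macrophages led the list. Spp1, which encodes the secreted adhesion protein osteopontin, stood at 303.2 and 456.3 CPM on the infarcted side against 6.17 and 5.10 CPM on the opposite side and 5.65 CPM in the naive library. Lgals3, which encodes the sugar-binding galectin-3, stood at 183.4 and 133.2 CPM against 2.72 and 1.44 CPM, with 1.31 CPM in the naive library. Both infarcted libraries were far above every other library of this comparison for both genes. The ratio of tags between sides was 49.1 for Spp1 in the 7 d pair (95% exact interval 40.7 to 59.8) and 89.4 in the LEV pair (73.1 to 110.5), intervals that cover counting error only. Gpnmb, a membrane glycoprotein of lipid-laden phagocytes, stood at 163.8 and 187.3 CPM against 3.28 and 2.23 CPM. Lyz2, the lysozyme of myeloid cells, stood at 754.6 and 650.3 CPM against 22.6 and 14 CPM. The log2 differences of these genes were 5.82 (standard error 0.11; adjusted p = 4.72e-117) for Spp1, 5.71 (0.12; adjusted p = 1.6e-104) for Lgals3, 5.57 (0.12) for Gpnmb and 5.22 (0.10) for Lyz2.

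**Figure D2:**
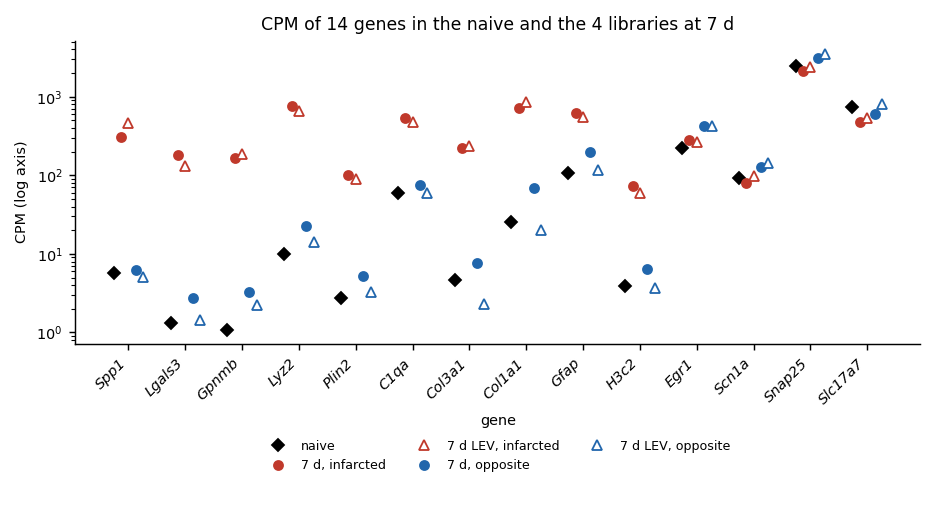
CPM on a log axis of 14 genes in the naive library (black diamonds) and in the 4 libraries at 7 d: infarcted side in red, opposite side in blue, circles without and open triangles with levetiracetam, 1 library per symbol. From Spp1 to H3c2 both red symbols lie above the naive and both blue symbols, and from Egr1 to Slc17a7 both lie below both blue symbols by less than 2-fold.

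All 20 tested genes of the phagocytic microglia list were called higher, with a median difference of 2.95, and their summed level was 10754 and 9408 CPM against 2231 and 2132 CPM, with 2064 CPM in the naive library. Cd68, a lysosomal glycoprotein of macrophages, stood at 138.7 and 126.0 CPM against 10.3 and 9.52 CPM (difference 3.61). The smallest difference in that list was 0.86. Of 12 genes of homeostatic microglia, 10 were called higher, with a median of 1.15. Aif1, the microglial actin-binding protein IBA1, stood at 160.8 and 138.1 CPM against 35.5 and 41.0 CPM (1.94). Of 11 tested genes of macrophages and monocytes 10 were called higher, with a median of 2.5, among them Ms4a7 (4.01), the scavenger receptor Msr1 (3.04) and the fatty acid transporter Cd36 (3.0). The lists overlap in the cells they mark, and tags from whole tissue do not separate microglia from macrophages.

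Promoters of some named genes are shown because CAGE tags start at promoters and because members of the same lists moved together. The sequences are from RefSeq on GRCm38.p6, 250 bases before to 50 after the annotated start, 5′ to 3′ on the strand of the gene, and capitals mark matches on either strand to 1 of 7 motifs: AP-1 (TGANTCA), PU.1 (GAGGAAGT), interferon response (GAAANNGAA), STAT (TTCNNNGAA), cAMP response (TGACGTCA), an E-box of lysosomal genes (TCACGTGA) and the TATA box (TATAAA). Spp1 (chr5:104434861-104435160, plus strand) held the PU.1 letters, an interferon response match and a TATA box. Gpnmb (chr6:49036268-49036567, plus strand) held AP-1 letters just after the start, and Cd68 (chr11:69666121-69666420, minus strand) held them at 2 places. The second annotated start of Mmp12 (chr9:7347124-7347423, plus strand) held AP-1 letters before the start and TATA letters just after it. Gfap (chr11:102897151-102897450, minus strand) held STAT letters beside the start. All promoters shown hold a match. The promoters of Lgals3, Lyz2, Plin2, Apoc2, Apoc4 and Timp1, and the second annotated start of Spp1, held none of the 7 motifs. A match is a description of the letters, not of a bound site.
Spp1: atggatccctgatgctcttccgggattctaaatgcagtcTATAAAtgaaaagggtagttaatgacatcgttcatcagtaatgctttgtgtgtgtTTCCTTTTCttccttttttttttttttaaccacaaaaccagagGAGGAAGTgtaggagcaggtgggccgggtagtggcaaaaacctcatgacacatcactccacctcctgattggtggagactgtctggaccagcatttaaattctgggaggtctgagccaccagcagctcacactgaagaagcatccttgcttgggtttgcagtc
Gpnmb: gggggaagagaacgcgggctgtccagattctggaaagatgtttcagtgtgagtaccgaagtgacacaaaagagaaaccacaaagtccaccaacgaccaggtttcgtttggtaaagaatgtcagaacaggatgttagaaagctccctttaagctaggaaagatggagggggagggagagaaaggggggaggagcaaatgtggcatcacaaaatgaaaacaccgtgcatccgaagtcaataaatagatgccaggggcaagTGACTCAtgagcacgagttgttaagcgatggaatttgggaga
Cd68: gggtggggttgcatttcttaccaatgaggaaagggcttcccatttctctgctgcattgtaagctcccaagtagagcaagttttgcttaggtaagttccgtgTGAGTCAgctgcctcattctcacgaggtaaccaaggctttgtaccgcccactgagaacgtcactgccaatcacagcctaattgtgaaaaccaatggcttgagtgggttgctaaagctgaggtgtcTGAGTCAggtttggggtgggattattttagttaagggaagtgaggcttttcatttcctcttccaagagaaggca
Mmp12: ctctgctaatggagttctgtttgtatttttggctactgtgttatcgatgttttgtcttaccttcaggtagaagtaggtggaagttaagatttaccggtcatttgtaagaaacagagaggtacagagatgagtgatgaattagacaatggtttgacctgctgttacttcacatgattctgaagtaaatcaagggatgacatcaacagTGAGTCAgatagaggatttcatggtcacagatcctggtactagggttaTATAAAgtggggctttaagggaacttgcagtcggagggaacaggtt
Gfap: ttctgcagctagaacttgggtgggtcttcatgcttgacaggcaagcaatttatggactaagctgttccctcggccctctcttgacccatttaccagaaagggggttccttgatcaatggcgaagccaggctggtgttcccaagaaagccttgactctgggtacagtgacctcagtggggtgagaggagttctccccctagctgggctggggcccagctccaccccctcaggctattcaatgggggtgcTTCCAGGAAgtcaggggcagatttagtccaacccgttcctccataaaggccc

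Of 32851 promoters listed by RefSeq, 7.81% held the AP-1 letters, and of the 15088 promoters of tested genes 5.09% did. The share was 8.12% of 2290 promoters of genes called higher, 9.94% of 674 promoters of genes at least 2-fold higher in both pairs and 5.36% of 1398 promoters of genes called lower. The PU.1 letters, named for a transcription factor of myeloid cells, were in 2.81% of tested promoters, 8.31% of those at least 2-fold higher and 2.00% of those called lower. The cAMP response letters ran the other way, at 2.88% of tested promoters, 1.04% of those at least 2-fold higher and 4.01% of those called lower. Among the lists, the interferon response letters were in 8 of 14 promoters of the interferon list (57.1%, against 7.10% of tested promoters and 8.56% of all in the table), and the AP-1 letters in 6 of 20 promoters of the phagocytic microglia list (30.0%). No test was made of these shares, and the groups differ in base composition: the median G+C was 60.7% over tested promoters, 55.0% in those at least 2-fold higher and 60.0% in those called lower.

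Complement, antigen presentation and interferon genes were higher in nearly every listed member. C1qa, a chain of the complement starter C1q, stood at 538.6 and 472.1 CPM against 75.3 and 60.1 CPM, with 59.6 CPM in the naive library (difference 2.89). All 14 complement genes were called higher, with a median of 1.68 and the largest difference in the receptor gene C3ar1 (3.65). All 7 tested MHC class II genes were called higher (median 1.69), and so were 10 of 11 genes of MHC class I and its processing (1.31). B2m, the light chain of class I, stood at 264.7 and 267.7 CPM against 81.2 and 62.8 CPM, and H2-Ab1, a class II chain, at 24.0 and 24.9 CPM against 5.78 and 3.99 CPM. Of 16 interferon-response genes 14 were called higher (1.37). Ifi27l2a stood at 165.8 and 229.9 CPM against 22.2 and 24.4 CPM (3.01) and Irf7, a transcription factor of the interferon response, at 21.6 and 39.8 CPM against 4.61 and 6.49 CPM (2.23). The median of the interferon list was 1.09 in the 7 d pair and 1.76 in the LEV pair, a gap that was not tested.

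Chemokine genes were called higher in 11 of 11 tested cases, with a median of 2.31. Ccl2, which attracts monocytes, stood at 9.40 and 16.2 CPM against 0.723 and 0.797 CPM (difference 2.93). Of 11 cytokine and inflammasome genes 10 were called higher (1.2), among them Tgfb1, a growth factor that drives scar formation, at 41.7 and 40 CPM against 10.1 and 8.72 CPM (2.01). The early cytokine genes Il1b and Tnf averaged below the limit for testing. Tnf stood at 1.27 and 1.10 CPM on the infarcted side against 0.111 and 0.106 CPM, which are 21 and 19 tags against 2 and 2. Its ratio of tags was 11.4 (interval 2.78 to 100.1) in the 7 d pair and 10.4 (2.5 to 91.7) in the LEV pair. Il1b stood at 0.301 and 0 CPM against 0.723 and 0.266 CPM, so it was the lower on the infarcted side in both pairs, at 5 and 0 tags against 13 and 5.

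Collagen and other scar matrix genes formed the second large group. Col3a1, a fibrillar collagen of early scars, stood at 221.8 and 238.9 CPM against 7.56 and 2.29 CPM, with 4.64 CPM in the naive library (difference 5.45, standard error 0.12; adjusted p = 1.06e-101). Col1a1 stood at 713.5 and 846.6 CPM against 68.3 and 20.0 CPM, with 25.4 CPM in the naive library (4.35). The opposite-side library of the 7 d pair was above that of the LEV pair for both genes, so their ratios differed between pairs: 29.3 (interval 24.7 to 35.1) against 104.5 (77.4 to 144.6) for Col3a1 and 10.5 (9.85 to 11.1) against 42.4 (38.2 to 47.0) for Col1a1. Col3a1 shares its tags with the overlapping gene Gm47302 and Spp1 with Gm42793, so each pair is 1 signal. All 13 fibrillar matrix genes were called higher (median 2.60), 12 of 13 genes of crosslinking enzymes and elastic fibres (2.07) and 11 of 12 of the basement membrane (0.98). Eln, which encodes elastin, stood at 47.6 and 60.3 CPM against 3.28 and 1.59 CPM (4.03), and Lox, the lysyl oxidase that crosslinks collagen and elastin, at 18.9 and 19.9 CPM against 0.945 and 0.532 CPM (3.56). Of 12 markers of meningeal fibroblasts 10 were called higher (1.18), with the small proteoglycan genes Lum (3.14) and Bgn (2.70) in front.

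Matrix-degrading enzymes rose beside the matrix itself. Mmp12, the macrophage elastase, stood at 72.9 and 34.2 CPM against 0.445 and 0.213 CPM, which are 8 and 4 tags (difference 5.27). Mmp3, stromelysin-1, stood at 6.99 and 14.1 CPM against 0.278 and 0 CPM (3.28). Timp1, an inhibitor of these enzymes, stood at 12.2 and 10.9 CPM against 0.556 and 0.638 CPM (2.97). Of 13 protease and inhibitor genes 12 were called higher (2.08).

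Lipid storage and lysosomal genes rose strongly. Plin2, which coats lipid droplets, stood at 102.1 and 91.0 CPM against 5.23 and 3.24 CPM, with 2.78 CPM in the naive library (difference 4.24). The apolipoprotein genes Apoc2 and Apoc4 stood at 43.1 and 21.7 CPM against 0.50 and 0.213 CPM and at 28.9 and 16.6 CPM against 0.167 and 0.319 CPM, and both were at 0 in the naive library. Apoc4 shares its tags with Gm44805. Of 14 genes of lipid droplets and cholesterol efflux 13 were called higher (median 1.65), and of 15 lysosomal genes all 15 (1.37), among them Grn, progranulin, at 201.7 and 219.2 CPM against 38.9 and 33.9 CPM (2.5). Of 11 iron and haem genes 7 were called higher (0.66). Hmox1, the haem oxygenase that breaks down haem, stood at 35.9 and 27.9 CPM against 5.28 and 3.62 CPM (2.60).

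Cholesterol synthesis went the other way. Of 15 genes of the pathway and its regulators 12 were called lower and 0 higher, with a median difference of −0.49. Fdft1, squalene synthase, stood at 44.7 and 48.6 CPM on the infarcted side against 72.3 and 71.6 CPM, with 64.8 CPM in the naive library (−0.61). The infarcted libraries were below both opposite libraries, as they were for 4578 of the 16296 tested genes. The median was −0.59 in the 7 d pair and −0.34 in the LEV pair. DESeq2 called 8 of the 12 lower. Without the treatment factor 12 were called, and 3 when the infarcted library of the 7 d pair was left out too.

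Genes of cell division were higher on the infarcted side. Mki67, the proliferation marker Ki-67, stood at 3.07 and 4.52 CPM on the infarcted side against 0.278 and 0.0532 CPM and was at 0 in the naive library (difference 2.03). Top2a, the topoisomerase of dividing cells, stood at 6.45 and 7.01 CPM against 0.890 and 0.266 CPM (2.32). Of 16 listed genes of cell division 13 were tested, and 11 of these were called higher (1.62). Mki67 and Top2a were below 1 CPM in both opposite libraries and met the limit for testing through the infarcted side. Such calls are partly set by that limit. With all 10 photothrombosis libraries fitted, 7 were called higher. Of 49 tested genes of the clustered replication histones, whose transcripts are made as DNA is copied, 36 were called higher and 1 lower (0.83). H3c2 stood at 72.3 and 59.2 CPM against 6.45 and 3.67 CPM (3.49) and H2ac10 at 56.9 and 52.1 CPM against 6.06 and 4.41 CPM (3.16). The histone list was drawn up after leading genes had been seen, 15 of its members share tags with a neighbour, and near-identical copies make single members uncertain. Of its 46 promoters 58.7% held TATA letters against 7.45% of tested promoters.

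H19 and Igf2, neighbouring imprinted genes of growth, were both called higher. H19, an imprinted long non-coding RNA on chromosome 7 that is largely silent after birth, stood at 23.2 and 25.7 CPM on the infarcted side against 0.167 and 0.213 CPM, which are 3 and 4 tags, and was at 0 in the naive library. Its ratio was 139.1 in the 7 d pair (interval 47.2 to 677.6) and 120.7 in the LEV pair (46.8 to 445.0), and the difference was 4.42. H19 overlaps the microRNA gene Mir675, which carries the same tags. Igf2, an insulin-like growth factor also made by meningeal fibroblasts, stood at 75.9 and 71.6 CPM against 24.6 and 22.6 CPM, with 29.8 CPM in the naive library (1.6). Of 10 imprinted growth genes 4 were called higher and 1 lower.

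Reactive astrocyte genes were higher while most genes of resting astrocytes were not called. Gfap, the intermediate filament of reactive astrocytes, stood at 615.3 and 557.6 CPM against 198.8 and 117.2 CPM, with 108.5 CPM in the naive library (difference 1.93). Its ratio was 3.10 (interval 2.98 to 3.22) in the 7 d pair, whose opposite side was the higher of the 2, and 4.76 (4.54 to 4.99) in the LEV pair. Vim, vimentin, which phagocytes and fibroblasts make too, stood at 114.7 and 112.3 CPM against 27.2 and 19.1 CPM (2.27). Of 16 reactive astrocyte genes 14 were called higher (0.95), and DESeq2 called 9. The list leader Timp1 and its member Emp1 are also made outside astrocytes. Of 12 genes of homeostatic astrocytes 2 were called higher, the water channel gene Aqp4 (0.93) and the gap junction gene Gja1 (0.53), and the median was 0.03. That count is near the 15.6% of all tested genes that were called higher. The glutamate transporter gene Slc1a2 stood at 1180 and 1239 CPM against 1331 and 1352 CPM (−0.15, adjusted p = 0.319), and the potassium channel gene Kcnj10 at 48.9 and 60.7 CPM against 51.3 and 46.7 CPM (0.15, adjusted p = 0.307).

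Vascular and oligodendrocyte genes moved less. Of 13 endothelial genes 5 were called higher (median 0.25) and of 11 genes of pericytes and smooth muscle 9 (0.60), of which DESeq2 called 2 and 5. Pdgfrb, the receptor that marks pericytes, stood at 33.0 and 32.5 CPM against 20.5 and 19.6 CPM (0.68). Vegfa, the main vascular growth factor, stood at 96.3 and 102.1 CPM against 110.9 and 117.4 CPM and was not called (−0.20, adjusted p = 0.114). It was called lower when each library was centred on its median gene. Of 12 myelin genes 10 were called higher, but with a median of 0.34. Without the treatment factor 5 were called, and leaving out in addition any library except the opposite side of the 7 d pair gave between 1 and 3. Mbp, the myelin basic protein, stood at 2300 and 2119 CPM against 2032 and 1515 CPM (0.33, adjusted p = 0.0166), a call that DESeq2 kept (adjusted p = 0.0282) and that was lost in limma without the treatment factor (adjusted p = 0.158).

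**Figure D3:**
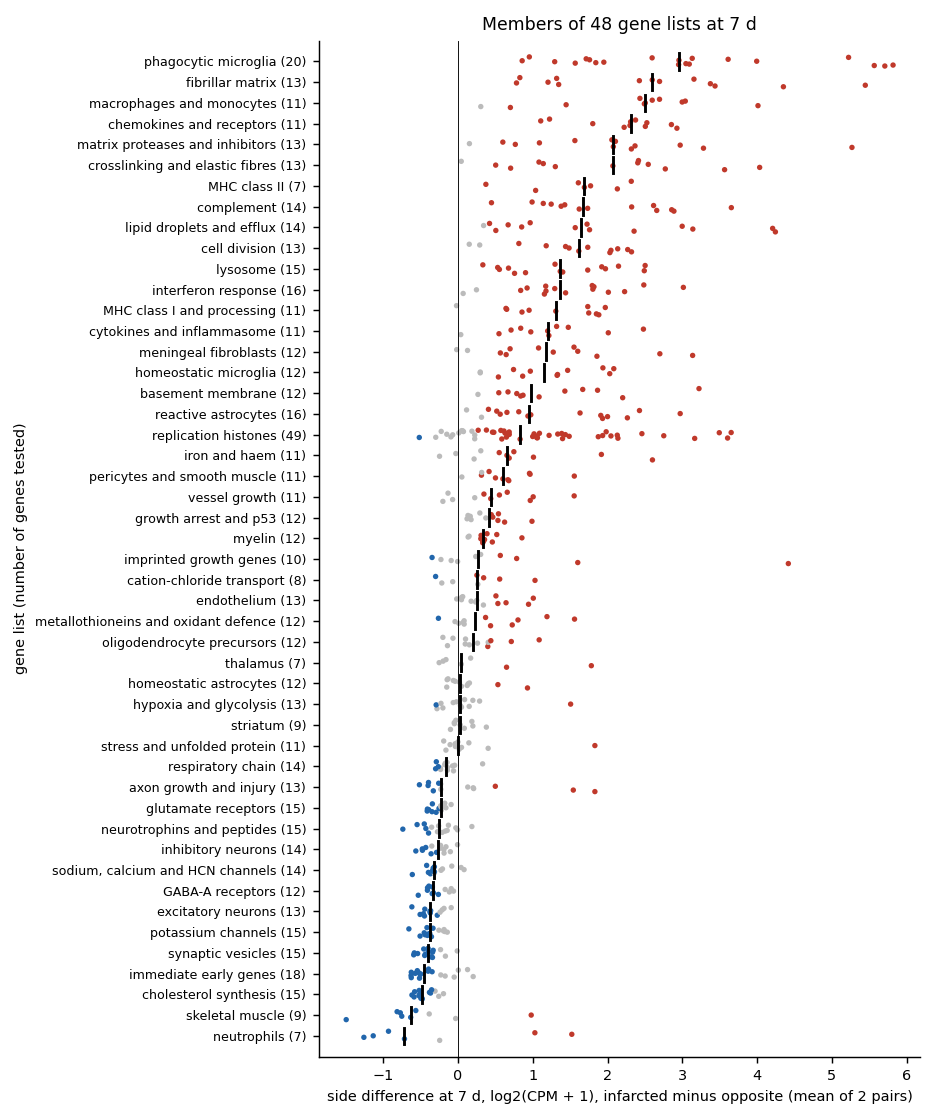
Side difference at 7 d in log2(CPM + 1), the mean of both pairs, for the tested members of 48 gene lists, ordered by their median (black bar). Each point is a gene, red where called higher, blue where called lower and grey where not called. Lists of phagocytes other than neutrophils, of matrix and of immunity lie to the right with nearly all points red. Lists of neurons, synapses and sterol synthesis lie within 1 unit to the left of 0. The lowest medians are those of the neutrophil (−0.71) and skeletal muscle (−0.63) lists.

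Neuronal genes were lower by small steps. Of 13 genes of excitatory neurons 9 were called lower and 0 higher (median −0.37), and of 14 genes of inhibitory neurons 6 were called lower (−0.26). Slc17a7, the vesicular glutamate transporter, stood at 481.0 and 543.1 CPM against 609.5 and 797.5 CPM (−0.45, standard error 0.10). Lamp5, a marker of upper-layer and interneuron cells, stood at 76.1 and 82.1 CPM against 122.6 and 120.7 CPM (−0.62). Pvalb, the calcium-binding parvalbumin of fast-spiking interneurons, stood at 90.8 and 86.2 CPM against 159.1 and 108.2 CPM (−0.56), and Sst, somatostatin, at 435.7 and 389.6 CPM against 581.8 and 564.2 CPM (−0.47). For these 4 genes the infarcted libraries were below both opposite libraries, as they were for 4578 of the 16296 tested genes. Gad1, which makes GABA, stood at 149.1 and 162.4 CPM against 195.0 and 204.8 CPM (−0.36), with 253.6 CPM in the naive library.

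Synaptic and channel genes showed the same small size. Of 15 synaptic vesicle genes 12 were called lower (median −0.39). Snap25, a protein of vesicle fusion, stood at 2153 and 2370 CPM against 3126 and 3444 CPM (−0.54), and its ratio was 0.689 (interval 0.680 to 0.698) in the 7 d pair and 0.688 (0.680 to 0.697) in the LEV pair. Sv2a, the binding site of levetiracetam, stood at 107.0 and 135.4 CPM against 147.8 and 157.8 CPM (−0.34, adjusted p = 0.00267), a call that DESeq2 did not make (adjusted p = 0.0763). Of 12 GABA-A receptor genes 8 were called lower (−0.33). The counts of genes called lower were 7 of 15 for glutamate receptors (−0.23), 8 of 14 for sodium, calcium and HCN channels (−0.32) and 10 of 15 for potassium channels (−0.38). Scn1a, the sodium channel gene of fast-spiking interneurons, stood at 80.6 and 96.6 CPM against 126.5 and 144.5 CPM (−0.61). Slc12a5, the chloride exporter of mature neurons, stood at 328.9 and 358.3 CPM against 335.3 and 474.6 CPM and was not called (−0.22, adjusted p = 0.0819).

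These counts of genes called lower changed with the test and with the libraries fitted. DESeq2 called 5 of the 9 excitatory, 3 of the 8 GABA-A receptor, 4 of the 7 glutamate receptor and 10 of the 12 synaptic vesicle genes. Without the treatment factor the counts were 8, 6, 4 and 11. Leaving out a library as well, they were 2, 0, 0 and 1 without the infarcted library of the 7 d pair and 2, 3, 0 and 2 without the opposite library of the LEV pair. With each library centred on its median gene they were 11, 8, 13 and 13. The naive library lay between the sides for several lists: the summed level of synaptic vesicle genes was 9393 CPM there, 7742 and 8583 CPM on the infarcted side and 10224 and 11554 CPM on the opposite side.

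Genes induced by firing were lower on the infarcted than on the opposite side, and their summed level was above that of the naive library on both sides. Egr1, an early transcription factor, stood at 283.2 and 266.3 CPM on the infarcted side, 422.5 and 426.8 CPM on the opposite side and 224.6 CPM in the naive library (difference −0.63, standard error 0.09; adjusted p = 3.24e-09). Nr4a1, a nuclear receptor of the same class of early genes, stood at 78.3 and 91.1 CPM, 122.4 and 139.5 CPM and 72.9 CPM (−0.62), and Fos at 13.7 and 14.8 CPM, 20.7 and 20.9 CPM and 7.43 CPM (−0.51). For each the opposite libraries were the highest, and the infarcted libraries lay between them and the naive library. Both infarcted libraries were below both opposite libraries in 4578 of the 16296 tested genes. Of 18 immediate early genes 12 were called lower and 0 higher (median −0.45), and DESeq2 called 6. The summed level of the list was 1005 and 947.4 CPM on the infarcted side, 1406 and 1290 CPM on the opposite side and 841.6 CPM in the naive library. Arc, a gene of synaptic plasticity, stood at 116.6 and 90.7 CPM against 195.6 and 119.9 CPM, with 96.3 CPM in the naive library, which lies between the infarcted libraries (−0.57). It was called without the treatment factor, but not when the opposite library of the 7 d pair or the infarcted library of the LEV pair was left out as well. Egr3, a transcription factor of the Egr1 family, stood at 100.9 and 92.3 CPM against 149.6 and 125.8 CPM (−0.50), and both infarcted libraries were below the naive library at 113.1 CPM.

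Several of the genes with the lowest differences were highest in 1 library by more than 2-fold. Camp, the cathelicidin of neutrophil granules, stood at 10.6 and 1.27 CPM on the infarcted side against 38.5 and 2.82 CPM on the opposite side (−1.26), and S100a9, a calcium-binding alarmin of neutrophils, at 20.1 and 5.79 CPM against 54.0 and 6.01 CPM (−0.71). Myh1, a fast myosin of skeletal muscle, stood at 0.181 and 0.116 CPM against 6.62 and 0.372 CPM (−1.49). In all 3 genes the opposite library of the 7 d pair was the highest. Others among the 12 lowest were lower in both pairs by at least 0.5 on the log2 scale. Cort, the neuropeptide cortistatin of interneurons, stood at 17.1 and 11.0 CPM against 24.6 and 22.4 CPM (−0.74), and Neu2, a sialidase, at 1.99 and 2.78 CPM against 4.28 and 5.00 CPM (−0.74). Klhl40, a protein of skeletal muscle, stood at 4.88 and 5.10 CPM against 7.95 and 11.4 CPM (−0.81), with 8.51 CPM in the naive library, and was called lower under all 15 settings tried. Of 7 tested neutrophil genes 4 were called lower, all of them granule or alarmin genes, and 2 higher, Csf3r (1.52), a receptor that macrophages carry too, and Mmp8 (1.03), a collagenase. Without the treatment factor 3 were called lower, and with the opposite library of the 7 d pair left out too 0 were, with Camp at 0.43 and S100a9 at 0.77. The summed level of the 10 neutrophil genes in the table was 84.9 and 34.8 CPM on the infarcted side, 184.0 and 21.6 CPM on the opposite side and 13.5 CPM in the naive library. Of 9 tested skeletal muscle genes, listed after the lowest genes had been seen, 6 were called lower and 1 higher. The list includes Pvalb, which interneurons also make and which holds 90.8 and 86.2 CPM of its sum on the infarcted side and 159.1 and 108.2 CPM on the opposite side. The sum of the muscle list was 118.7 and 108.9 CPM against 220.8 and 143.8 CPM, with 175.7 CPM in the naive library, and 0 of its members were at 0 in the opposite library of the 7 d pair against 6 in that of the LEV pair and 2 and 6 on the infarcted side. The part of other tissue or blood in these values was not tested. The haemoglobin gene Hbb-bs varied more between pairs than between sides, at 62.0 and 17.6 CPM against 84.8 and 25.2 CPM.

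Several lists gave little or no side difference. Of 12 listed T and B cell genes in the table, 2 reached the limit for testing and 0 were called by limma, edgeR or DESeq2, or had an unadjusted p under 0.05: Cd4 stood at 1.21 and 3.53 CPM against 2.06 and 1.38 CPM and Lck at 0.904 and 2.14 CPM against 1.22 and 1.65 CPM. In hypoxia and glycolysis 1 of 13 genes was called higher, the hexokinase gene Hk2 (1.51), and 1 lower, Pgk1 (−0.29), a call that DESeq2 did not make. In stress and the unfolded protein response the 1 gene called of 11 was Atf3 (1.83), which also marks injured axons. Of 9 striatal genes 0 were called by limma (1 at an unadjusted p under 0.05) or DESeq2 and 1 by edgeR. Their median was −0.43 in the 7 d pair and 0.56 in the LEV pair, and the sums were 565.7 and 839.5 CPM against 766.0 and 636.3 CPM, so the opposite side was the higher in the 7 d pair and the infarcted side in the LEV pair.

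The counts of the remaining lists follow. Of 12 genes of metallothioneins and oxidant defence 6 were called higher and 1 lower (median 0.23), with the plasma glutathione peroxidase gene Gpx3 (1.56) and the selenium carrier gene Selenop (1.19) in front. Of 12 genes of growth arrest and p53 6 were called higher (0.41), and 4 of 12 genes of oligodendrocyte precursors (0.21), 7 of 11 of vessel growth (0.44) and 4 of 8 of cation-chloride transport (0.26, with 1 lower) were too. DESeq2 called 2, 2, 3 and 1 of these higher. Of 13 genes of axon growth and injury 3 were called higher, among them Atf3 and the neuropeptide gene Gal (1.54), and 5 lower, among them the neurofilament gene Nefm (−0.52). Of 15 genes of neurotrophins and peptides 5 were called lower (−0.26), among them Vgf (−0.55) and Npy (−0.48), and of 14 genes of the respiratory chain 3 (−0.16), of which DESeq2 called 0. Among neighbouring tissues, 2 of 7 thalamic genes were called higher, the kinase gene Prkcd (1.78) and the transcription factor gene Tcf7l2 (0.65). The median of the thalamic list was 0.04. Called higher were also 1 of 5 hippocampal genes (median 0.17) and 1 of 5 choroid plexus genes (−0.02). Over all tested genes 15.6% were called higher and 8.41% lower, so counts such as 1 of 5 are near the share of all genes.

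The side difference at 7 d was set against that at 1 m, in a fit of the 8 libraries of both times with 2 residual degrees of freedom. Of 16228 genes 503 (3.1%) differed, 494 with a larger difference at 7 d and 9 with a smaller one, both taken with their sign. Of the 9, 6 were called lower on the infarcted side at 7 d. Of the 2455 genes called higher at 7 d that entered this test, 491 were among the 494. H19, at 23.2 and 25.7 CPM at 7 d, stood at 0.431 and 0 CPM on the infarcted side at 1 m (change in the side difference 4.16, adjusted p = 5.46e-05). Spp1 stood at 26.0 and 17.7 CPM on the infarcted side at 1 m, without and with LEV (3.95, adjusted p = 5.46e-05). Eln stood at 3.73 and 2.97 CPM (3.89), Col3a1 at 31.1 and 3.38 CPM (3.75), Plin2 at 8.90 and 2.97 CPM (3.43) and Mmp12 at 12.9 and 1.09 CPM (3.01). All 6 genes were far below their 7 d level in both infarcted libraries at 1 m.

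Not every large difference at 7 d was larger than at 1 m by this test. Lgals3 (adjusted p = 0.124), Gpnmb (0.0518), Lyz2 (0.18) and Wfdc17 (0.222) were not called, and in each the untreated infarcted library at 1 m stayed well above the LEV library: Lyz2 stood at 383.5 and 54.4 CPM and Lgals3 at 87.2 and 18.2 CPM. Gfap was 384.4 and 444.2 CPM at 1 m against 107.3 and 157.5 CPM on the opposite side, and its side difference was not called as changed (0.27, adjusted p = 0.477). Among the lists, 32 of 49 replication histones, 10 of 13 fibrillar matrix genes, 12 of 19 phagocytic microglia genes and 8 of 11 macrophage genes had a larger difference at 7 d, against 0 of 7 MHC class II genes, 2 of 16 reactive astrocyte genes and 0 of 15 synaptic vesicle genes. Genes with a smaller side difference at 7 d than at 1 m included Lcn2, an iron-binding lipocalin made by astrocytes after injury, at 10.0 and 6.90 CPM against 4.89 and 3.03 CPM at 7 d and 16.7 and 22.5 CPM against 0.726 and 1.33 CPM at 1 m (−2.41, adjusted p = 0.00015). Chil1, a chitinase-like protein of astrocytes, followed the same order, at 17.2 and 15.3 CPM against 12.1 and 12.8 CPM at 7 d and 31.6 and 26.9 CPM against 8.64 and 8.38 CPM at 1 m (−1.30).

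**Figure D4:**
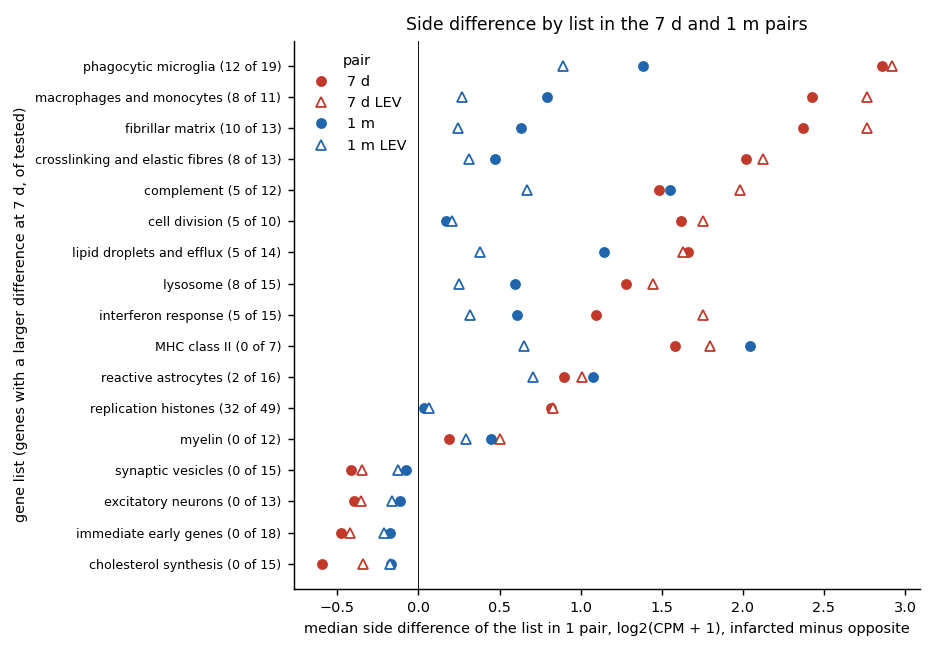
Median side difference in log2(CPM + 1) of 17 gene lists in each of 4 pairs, at 7 d in red and at 1 m in blue, circles without and open triangles with levetiracetam. Numbers in brackets are the genes whose side difference was called larger at 7 d, of those tested. For phagocytes, matrix, cell division and histones both red symbols lie to the right of both blue ones, and for complement, MHC class II, reactive astrocytes and myelin the symbols of the 2 times overlap.

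The genes called higher were less dependent on the processing than those called lower. Of the 2537, 820 were called higher under all 15 settings tried, against 30 of the 1371 called lower. Those 30 include Egr1, Nr4a1, Lamp5, Scn1a, Fdft1, Vamp1, a vesicle protein of fast-spiking neurons, Vgf, a secreted neuronal peptide precursor, and Npy, a neuropeptide of interneurons. Limma, edgeR and DESeq2 all called 1379 genes higher and 271 lower. When each library was centred on its median gene, 45.2% of the calls were higher, against 64.9% in the fit reported, so the balance of higher and lower calls depends on that scaling.

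**Figure D5:**
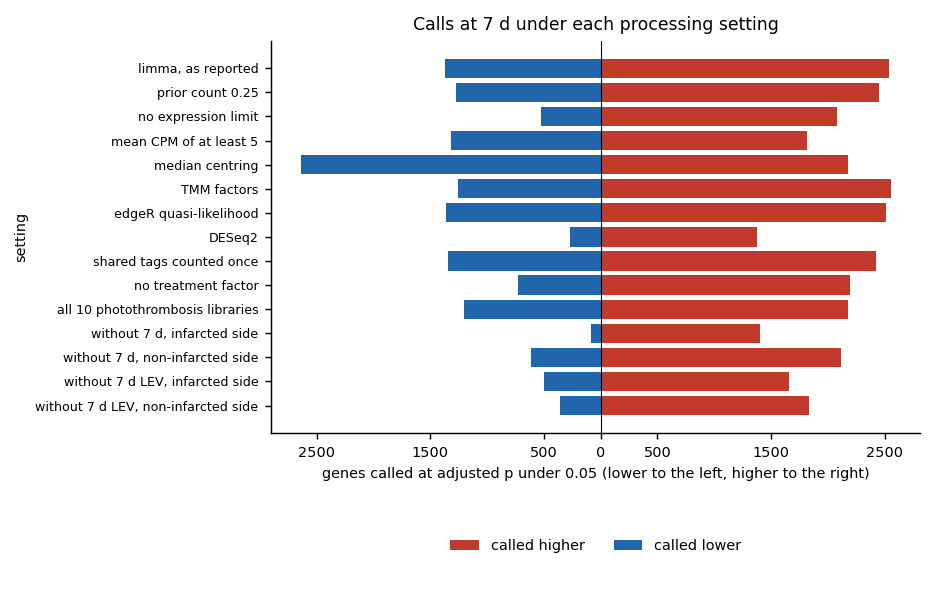
Number of genes called at an adjusted p under 0.05 at 7 d under 15 processing settings, called higher to the right (red) and lower to the left (blue). The higher calls run from 1379 to 2556, and the lower calls from 84 without the infarcted library of the 7 d pair to 2642 with median centring.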

How the data were processed

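CAGE tags were counted by the authors in 11 cortex libraries, 1 per group. They deposited a table of 22377 genes in CPM (tag counts divided by the library's total). Tools listed in the submitters' processing notes, with no role given, are HISAT2 2.0.5, BWA 0.7.17 and DESeq2 1.20.0, and the build is GRCm38. Every CPM value lies within 0.01 of a whole tag (100% of values), so tags were recovered for ratios with exact 95% intervals and for count tests. Gene identifiers were matched to GENCODE M21 (22335, or 99.8%).

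Genes averaging at least 1 CPM were tested on the log2(CPM + 1) scale with limma 3.58.1 (mean-variance trend) in R 4.3.3, with side and treatment pair at 7 d, and with side, state and a side-by-time term for 7 d against 1 m. Adding 1 CPM understates fold changes of low genes. P-values were adjusted by Benjamini-Hochberg over all genes tested, and a gene was called under 0.05. On the recovered tags edgeR 4.0.16 called 3879 genes and DESeq2 1.42.0 called 1650. The tests were tested on simulated data.

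The members and the lists were chosen with earlier results of these data known. The naming rule takes the 12 highest and the 12 lowest calls that had the same sign in both pairs, up to 4 called members of each of 50 lists (or the 2 highest by level where none was called), a fixed panel, and the 6 highest and 6 lowest of the time term; a selection of these is printed, and some genes are not reported here. Other list members were picked with their values known. Lists of skeletal muscle and replication histones were added after seeing the data. Genes whose tags match a neighbour's within 5% and 5 kb (1057) may be 1 signal, and CAGE tags of near-identical copies are uncertain. No paired fit by replicate number exists, since each group is 1 library; the treatment pair is a factor of the fit. Other settings are given in the closing section. Python 3.11.15 was used with numpy 2.4.6, scipy 1.17.1, pandas 2.3.3 and, for figures, matplotlib 3.10.9.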

Additional observations from a re-analysis of the deposited data

Results flagged for a closer look

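The difference between the infarcted and the opposite side changed between 7 d and 1 m for 503 of 16228 genes. These were called by limma's test of that change with adjusted p under 0.05. Taken with its sign, the difference was larger at 7 d for 494 of them and smaller for 9. The 12 genes listed here were taken by the naming rule from the highest and the lowest changes, so they do not show that balance. The change is the log2 side difference at 7 d minus that at 1 m, each a mean over an untreated and a levetiracetam pair. The side difference was larger at 7 d for H19 (4.158), Spp1 (3.952), Eln (3.891), Col3a1 (3.752), Plin2 (3.431) and Mmp12 (3.015). Taken with its sign, it was smaller at 7 d for Lcn2 (−2.409), S100a9 (−1.621), Chil1 (−1.304), Tmem212 (−1.089), Gstm1 (−0.6775) and Cnr1 (−0.6522). S100a9 (−0.71), Gstm1 (−0.41) and Cnr1 (−0.37) were called lower on the infarcted side at 7 d. In both pairs at 1 m these genes were higher on the infarcted side, so their difference changed direction. Lcn2 and Chil1 were higher on the infarcted side at both times. S100a9 had its highest value, 54.0 CPM, in the opposite-side library of the untreated 7 d pair. In the 4 libraries at 1 m it stood at 3.0 to 8.33 CPM. Its side difference in the LEV pairs was −0.04 at 7 d and 1.22 at 1 m.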

How the results depend on the processing

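Of the 3908 genes called at 7 d, 2602 were called with no limit on expression, when 21967 genes were tested, and 1650 by DESeq2. The 2537 higher calls became 1379 by DESeq2. The 1371 lower calls became 523 with no limit on expression, 2642 with median centring, 271 by DESeq2 and 731 without the treatment factor. Leaving out 1 library at a time, with no treatment factor, gave 1491 to 2730 calls, 1407 to 2118 higher and 84 to 612 lower, the fewest without the infarcted library of the 7 d pair. The other settings (a prior count of 0.25, a mean CPM of at least 5, TMM factors, edgeR, shared tags counted once, all 10 photothrombosis libraries) kept the total within 1.5 times. The 503 genes of the comparison with 1 m became 289 with no limit on expression, 224 by DESeq2 and 888 with a drug term, and leaving out 1 pair gave 162 (without the 7 d pair) to 857 (without the 1 m pair). The cause was not tested. Of the named genes called in the fit reported, 6 changed sign when 1 library was left out. Sign changes of named genes called in neither fit were not counted. The ranges of the 6 were −2.20 to 0.77 for S100a9, −1.26 to 0.41 for Hbb-bt, −1.35 to 0.41 for Hbb-bs, −2.94 to 0.43 for Camp, −2.71 to 0.44 for Ngp and −0.00465 to 1.25 for Cdkn1a. Without the opposite library of the 7 d pair S100a9 (0.77), Hbb-bt (0.41), Hbb-bs (0.39), Camp (0.43) and Ngp (0.44) changed sign, without the infarcted library of the LEV pair S100a9 (0.10), Hbb-bt (0.10) and Hbb-bs (0.41), and without the opposite library of that pair Cdkn1a (−0.00465). The sides were paired within treatment by a factor of the fit, and no other pairing, by replicate number, was possible because each group is 1 library. Lower calls were kept less often than higher calls in the 4 fits that left out 1 library and the treatment factor, each of which leaves 1 library on a side. Ratios had no floor, and those of rare transcripts, at counts near 3 tags (0.159 to 0.181 CPM), are loosely fixed.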

Other observations

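The calls were not spread evenly over classes of genes. Of 130 tested small nucleolar RNA genes, which guide the modification of ribosomal RNA, 39 were higher and 0 lower by the side test (30%, median difference 0.20), against 2274 higher and 1251 lower of 13843 protein-coding genes (16.4% and 9.04%, median −0.02). Of 197 processed pseudogenes 39 were called higher and 4 lower, and of 484 long intergenic RNA genes 44 and 39. Small nucleolar RNA genes lie mostly within other genes, and tags of overlapping genes cannot be told apart.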
